A study of Mus musculus with 100 samples.

Results

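Non-fibrillar collagen genes led by Col14a1, 7 in number, were followed in knee joints of 3 mouse strains before and after a joint injury. The genes were chosen by name from earlier results of these data, and all 7 were found among the 17310 genes of the count table. Because the measured values that led to the choice were not recorded, the comparisons below describe single genes, with p-values adjusted over all 17310 genes, and none is evidence about the list.

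The 100 libraries came from whole knee joints, dissected with small traces of soft tissue, of mice injured at an age of 10 weeks, so that mice of later times were older and age cannot be told apart from time. The strains were MRL/MpJ, labelled not susceptible to post-traumatic osteoarthritis, C57BL/6, labelled moderately susceptible, and STR/ort, labelled highly susceptible. All injuries were made in the right knee with a compressive load of 10 to 12 N, and the joint opposite the injured one (contralateral) served as the uninjured joint. Each strain had 4 libraries of uninjured joints at 0-day (0D), before any injury, and 4 or 5 libraries each of injured and contralateral joints on day 1 (1D) and at the end of week 1 (1W) and week 2 (2W), 21 groups in all. A contralateral joint belongs to an injured animal and is not a sham-treated control. The 70 libraries of 0D, 1D and 1W form experimental batch 1 and the 30 libraries of 2W batch 2, so 2W cannot be told apart from its batch and was not tested against earlier times.

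Fibril-associated collagens with interrupted triple helices (FACITs) do not form fibrils of their own. They lie on the surface of fibrils built from the fibrillar collagens and carry large non-collagenous domains that reach into the surrounding matrix. Of the 7 genes, 4 encode FACITs. Col14a1 encodes the chain of type XIV collagen and Col12a1 that of type XII collagen, both abundant in tendon, ligament and other dense connective tissue. Col16a1 encodes the chain of type XVI collagen, found in several connective tissues. Col22a1 encodes the chain of type XXII collagen, known from tissue junctions such as that between muscle and tendon. The remaining genes are not FACITs, so the list's working name covers 4 of 7 genes. Col8a1 and Col8a2 encode chains of type VIII collagen, a short network-forming collagen, and Col7a1 encodes the chain of type VII collagen, which forms the anchoring fibrils beneath epithelia.

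The repeat that makes a collagen helix, a glycine followed by any 2 residues (Gly-X-Y), takes up different shares of these proteins. The sequences below are the first 90 coding bases of the longest unbroken run of Gly-X-Y codons in the longest coding transcript of 4 genes (GENCODE M21 on GRCm38, the assembly also called mm10, written 5′ to 3′), with the glycine codon that opens each Gly-X-Y triplet in capitals. They are shown because Col14a1 and Col12a1 differ from the other genes mainly in how little of their coding sequence such runs fill. The runs begin at coding base 4549 in Col14a1, 8413 in Col12a1, 1063 in Col8a1 and 7552 in Col7a1.
Col14a1: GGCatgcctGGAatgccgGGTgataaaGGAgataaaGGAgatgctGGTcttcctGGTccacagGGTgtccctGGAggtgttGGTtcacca
Col12a1: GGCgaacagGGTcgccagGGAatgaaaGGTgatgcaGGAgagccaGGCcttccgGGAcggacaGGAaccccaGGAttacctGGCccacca
Col8a1: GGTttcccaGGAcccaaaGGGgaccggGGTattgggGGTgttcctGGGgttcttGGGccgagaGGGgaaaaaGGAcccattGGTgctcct
Col7a1: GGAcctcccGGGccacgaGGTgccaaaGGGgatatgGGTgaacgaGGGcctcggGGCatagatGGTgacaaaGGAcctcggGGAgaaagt

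Col14a1 (chr15:55307750-55520803, plus strand) has 1798 codons, of which 13.8% lie in Gly-X-Y runs of at least 5 triplets. Its first such run begins at 81.4% of the coding sequence, so the helix-forming part sits close to the C-terminal end. Col12a1 (chr9:79598991-79718831, minus strand) is the longest, with 3065 codons, 8.12% of them in such runs, and its first run begins at 89.7%. In both genes the longest run held 32 triplets. The other FACIT genes had far more of the repeat, 62.1% of 1580 codons in Col16a1 (chr4:130047840-130099283, plus strand) and 63.2% of 1613 codons in Col22a1 (chr15:71795795-72034227, minus strand). The type VIII chains were short, 744 codons in Col8a1 (chr16:57624258-57754737, minus strand) and 699 in Col8a2 (chr4:126286793-126314330, plus strand), with 58.9% and 63.5% in runs. Col7a1 (chr9:108953586-108984875, plus strand) had 2944 codons, 48.0% of them in 20 separate runs. Gene coordinates are those of the whole annotated gene, exons and introns together.

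**Figure D1:**
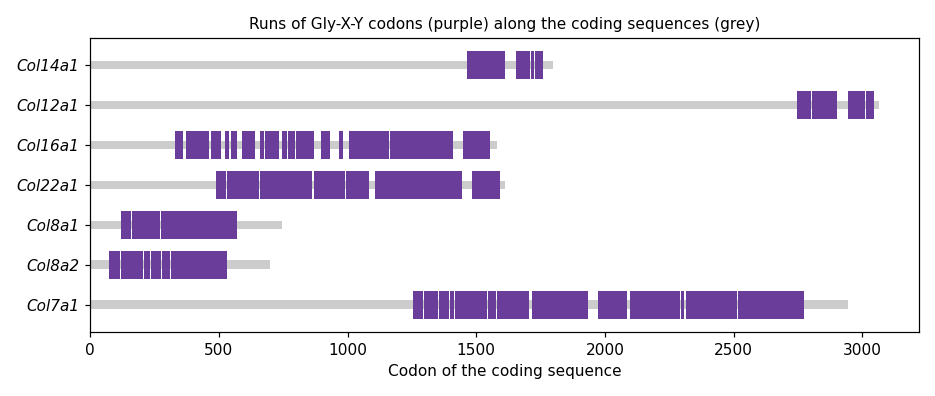
The coding sequence of each of the 7 collagen genes is drawn as a bar from its first to its last codon (x axis, codons), with runs of at least 5 Gly-X-Y triplets filled. The runs of Col14a1 and Col12a1 lie near the end of the bar, after 81.4% and 89.7% of the codons, while those of the other 5 genes cover 48.0% to 63.5% of the codons.

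RefSeq upstream sequence was at hand for 4 of the 7 genes, Col16a1, Col8a1, Col8a2 and Col7a1. Up to 250 bases before the annotated start of these genes were searched on both strands for 4 motifs, namely that of AP-1 (TGANTCA), that of TEAD factors (GGAATG), the box of many core promoters (TATAAA) and the one bound by Sp1, called the GC box (GGGCGG). The upstream sequences of Col16a1 (GRCm38.p6, chr4:130047590-130047816, plus strand) and Col8a2 (GRCm38.p6, chr4:126286544-126286792, plus strand) are shown because levels of these genes followed each other closely across libraries, as described at the end. GC boxes on either strand are in capitals.
Col16a1: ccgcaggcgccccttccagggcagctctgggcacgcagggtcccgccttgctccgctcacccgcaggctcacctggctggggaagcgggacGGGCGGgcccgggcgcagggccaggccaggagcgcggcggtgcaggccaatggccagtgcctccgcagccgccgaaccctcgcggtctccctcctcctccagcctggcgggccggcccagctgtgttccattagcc
Col8a2: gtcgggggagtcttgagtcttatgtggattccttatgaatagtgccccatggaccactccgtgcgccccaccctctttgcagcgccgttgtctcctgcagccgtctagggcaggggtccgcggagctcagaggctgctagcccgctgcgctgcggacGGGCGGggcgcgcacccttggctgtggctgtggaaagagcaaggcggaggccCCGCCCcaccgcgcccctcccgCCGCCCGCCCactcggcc

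The GC content of these stretches was 75.8% for Col16a1 and 69.9% for Col8a2. The GC box had 1 match upstream of Col16a1, 4 of Col8a2 (2 of them overlapping), 4 of Col8a1 and 1 of Col7a1, and 32.7% of 32851 mouse promoters held one in the same window. The other 3 motifs had no match in these 4 windows, and 6.75% (AP-1), 12.6% (TEAD) and 12.4% (core promoter box) of all promoters held them. These matches describe letters only.

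Library totals ran from 6182016 to 20986027 counts with a median of 10582591.5, and the lowest count of any of the 7 genes in a library was 25. The joints held other tissues too. Counts scaled to a common library size (CPM), summed over 7 fast muscle genes, ran from 14366 to 124633 over the 100 libraries, those of 6 fibroblast genes from 1024 to 6633 and those of 5 tendon genes from 151 to 3414. Cartilage (5 of 6 listed genes measured) gave 977 to 6178 CPM, bone 448 to 3913, synovial lining 532 to 18991 and macrophages 999.7 to 3085, so the labelled tissue carried its defining markers. Of the other lists, endothelium gave 246 to 440.5, smooth muscle and pericytes 181 to 891, fat 92.5 to 482, erythroid cells 410.2 to 2637, and the 3 keratinocyte genes measured of 6 listed only 5.43 to 17.8 CPM. No marker gene was at 0 in all libraries of a group. In bulk joints, fewer cells of a type and less RNA per cell cannot be told apart, and gene counts do not separate isoforms. Mean muscle and fibroblast sums are given beside the comparisons below, and their part in the results was not tested.

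Among uninjured joints at 0D, the FACIT gene Col12a1 had the highest mean in each strain and the anchoring fibril gene Col7a1 at or near the bottom when levels were expressed per kilobase of the longest coding transcript. The mean of Col12a1 was 15.4 ± 0.485 CPM per kb in MRL/MpJ, 31.7 ± 2.12 in C57BL/6 and 24.3 ± 5.79 in STR/ort (SD, n = 4 each). Col16a1 followed in C57BL/6 and STR/ort with 22.9 ± 2.75 and 19.1 ± 4.64 CPM per kb, in STR/ort less than its SD above Col8a1 (18.03 ± 3.48), which ranked first in at least 1 library, whereas in MRL/MpJ Col22a1 (10.6 ± 0.587), Col16a1 (9.41 ± 1.00) and Col8a1 (8.78 ± 0.600) were close to each other. Col14a1 was at 3.39 ± 0.630 CPM per kb in MRL/MpJ, 13.0 ± 2.69 in C57BL/6 and 11.3 ± 2.26 in STR/ort. At the low end, Col7a1 exceeded Col8a2 in MRL/MpJ (2.25 ± 0.244 against 1.64 ± 0.177), and the order was the other way in C57BL/6 (0.910 against 4.95) and STR/ort (1.37 against 3.42). Over all 100 libraries Col12a1 was above Col14a1 per kb in 93, above Col16a1 in 96 and above Col22a1 in 95. The order of neighbours depended on the length used, since Col14a1 was above Col8a1 in 28 libraries with the transcript length and in 49 with the union of all exons, and Col16a1 above Col22a1 in 74 and 47.

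Before injury, MRL/MpJ joints had the lowest levels of 6 of the 7 genes and the highest of Col7a1. A gene was called where edgeR's quasi-likelihood test gave a Benjamini-Hochberg adjusted p below 0.05 over all genes and the fold exceeded 1.5. Col14a1 read 18.1, 19.2, 23.4 and 27.0 CPM in the 4 MRL/MpJ libraries, 67.4, 73.5, 88.2 and 106 in C57BL/6 and 52.7, 72.0, 82.0 and 85.0 in STR/ort. MRL/MpJ did not overlap with either strain, and Col14a1 was 3.90-fold higher in C57BL/6 (log2 fold change 1.96 ± 0.16 SE, adjusted p = 4.7e-08, edgeR) and 3.31-fold higher in STR/ort (1.73 ± 0.17, adjusted p = 2.2e-07, edgeR). C57BL/6 exceeded MRL/MpJ in 5 of the 7 genes, with log2 fold changes of 1.09 for Col12a1, 1.32 for Col16a1, 0.62 for Col22a1 and 1.64 for Col8a2, and was lower in Col7a1 (−1.26), in a comparison that called 15.9% of all genes. STR/ort likewise exceeded MRL/MpJ in 5 genes (Col14a1, Col12a1, Col16a1, Col8a1 and Col8a2) and was lower in Col7a1 (−0.71), against 14.8% of all genes called. The Col12a1 call for STR/ort was lost without STR/ort replicate 3 (0.51 in place of 0.66). Between STR/ort and C57BL/6 only Col8a1 of the 7 genes was called, 0.60 higher in STR/ort, where 13.8% of all genes were called, and this call was lost with scaling on housekeeping genes (0.54), with RUVg, a method that removes 1 factor estimated from housekeeping genes (0.42), and on leaving out any of 3 libraries. Col8a2 (−0.57) and Col7a1 (0.55) missed the fold threshold alone (adjusted p = 0.0015 and 0.0091, edgeR). Col8a2 was called with housekeeping scaling (−0.63), with RUVg (−0.66) and on leaving out any of 4 libraries (−0.67 to −0.59), and Col7a1 by DESeq2 (0.59) and on leaving out any of 5 (0.59 to 0.63). Fibroblast sums at 0D were 1285 to 1486 CPM in MRL/MpJ, 2387 to 3328 in C57BL/6 and 2345 to 3115 in STR/ort, and fast muscle sums averaged 80812, 44143 and 80903.

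One day after injury, Col14a1 was higher in injured than in contralateral joints of C57BL/6 and lower in injured than in contralateral joints of STR/ort. In C57BL/6 it read 157, 167, 177, 199.96 and 202 CPM in injured joints and 63.3, 66.7, 73.5, 77.8 and 82.1 in contralateral joints. In STR/ort it read 49.3, 52.0, 53.1, 58.0 and 104 in injured and 94.2, 97.9, 99.5, 161 and 179 in contralateral joints. Every injured C57BL/6 joint was above every contralateral joint, while in STR/ort 4 injured joints were below all contralateral joints and replicate 5, at 104, lay among them. In MRL/MpJ the groups overlapped, with 25.6, 26.7, 31.0, 34.7 and 35.7 in injured and 26.1, 26.3, 26.4, 27.7 and 28.4 in contralateral joints. Set beside 0D with no test, the injured STR/ort joints (mean 63.3) overlapped the 0D range (52.7 to 85.0, mean 72.9). The contralateral STR/ort joints (mean 126) lay above that range, a comparison whose test is given further below. The injured C57BL/6 joints, again with no test, lay above their 0D range (67.4 to 106).

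The log2 fold change of Col14a1 at 1D was 1.31 ± 0.17 (SE) in C57BL/6 (adjusted p = 8.7e-07, edgeR), −1.02 ± 0.17 in STR/ort (adjusted p = 8.9e-05, edgeR) and 0.20 ± 0.18 in MRL/MpJ (adjusted p = 0.67, edgeR). Without STR/ort injured replicate 5 the STR/ort value was −1.25. That library also held more fast muscle RNA (42688 CPM) than the other 4 (16758 to 24849.5), and more fibroblast RNA (4047 CPM). Fast muscle was lower in injured than contralateral STR/ort joints by its 7 genes' median log2 fold change of −0.72, with 5 of 7 called lower, against a median of −0.02 over all genes. Fast muscle sums averaged 24715 in injured and 40521 CPM in contralateral STR/ort joints, 38628 and 53193 in C57BL/6, and 51876 and 70889.5 in MRL/MpJ. Fibroblast sums averaged 3040.3 and 3916 in STR/ort, 2995 and 2492 in C57BL/6, and 1567 and 1468 in MRL/MpJ. Tendon sums averaged 1459.9 and 1060.2, 1484 and 763, and 738 and 392.5, and synovial lining sums 8004 and 7960.1, 3657 and 2078, and 3250.0 and 2025, in the same order. Of the 5 tendon markers 2 were called lower in STR/ort, 2 higher in C57BL/6 and 2 higher in MRL/MpJ. Of the 6 fibroblast markers 1 was called lower in STR/ort and 1 higher in C57BL/6.

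Of the other genes at 1D, Col16a1 (0.71) and Col8a1 (0.82) rose in C57BL/6, which with Col14a1 made 3 of 7 called higher where 5.60% of all genes were called. In STR/ort Col14a1 and Col7a1 (−0.83) were called lower, 2 of 7, where 4.31% of all genes were called. In MRL/MpJ edgeR called 0 of 7 at 1D, with 4 at an unadjusted p below 0.05 and 0 by DESeq2, where 2.02% of all genes were called.

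**Figure D2:**
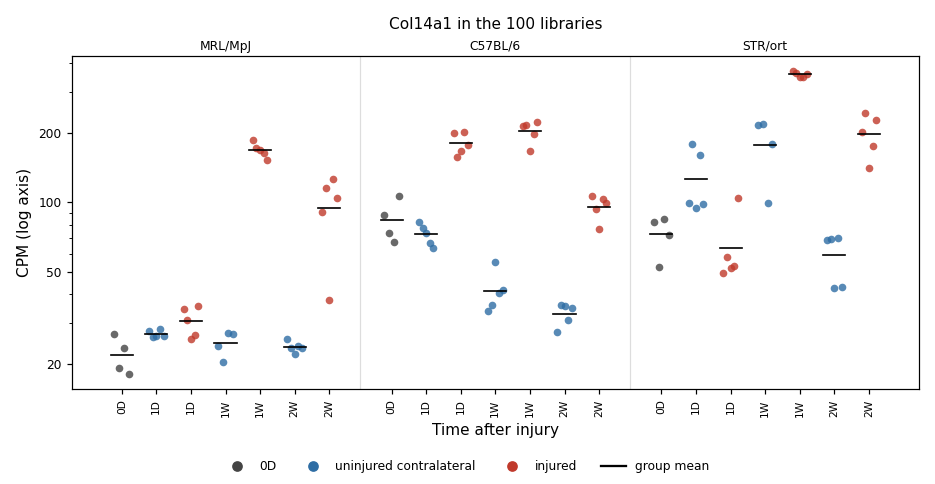
Col14a1 in CPM (y axis, log scale) is plotted for each of the 100 libraries by strain, time and joint, a point per library, with horizontal lines at group means. Injured joints at 1W sit between 348 and 369 in STR/ort, 167 and 224 in C57BL/6 and 153 and 186 in MRL/MpJ, above all contralateral joints of their strain.

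At 1W, Col14a1 was higher in injured joints of all 3 strains. In MRL/MpJ it read 153, 164, 169, 171 and 186 CPM in injured and 20.3, 24.0, 26.8 and 27.3 in contralateral joints. In C57BL/6 it read 167, 197, 215, 216 and 224 in injured and 33.8, 35.8, 40.4, 41.9 and 54.9 in contralateral joints. In STR/ort it read 348, 350.0, 359, 364 and 369 in injured and 99.0, 179, 216 and 217 in contralateral joints. The groups did not overlap in any strain, and STR/ort had both the highest injured and the highest contralateral levels.

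Col14a1 rose 6.99-fold in MRL/MpJ (log2 fold change 2.81 ± 0.17 SE, adjusted p = 2.3e-12, edgeR), 4.99-fold in C57BL/6 (2.32 ± 0.15, adjusted p = 1.2e-11, edgeR) and 2.01-fold in STR/ort (1.01 ± 0.15, adjusted p = 9.2e-06, edgeR). STR/ort contralateral replicate 3, at 99.0 CPM, also had the lowest fibroblast sum of its group (3249 against 5363 to 5565), and without it the STR/ort value was 0.81. Fibroblast sums averaged 2521 in injured and 1349 CPM in contralateral MRL/MpJ joints, 2698 and 1489.6 in C57BL/6, and 5987 and 4923 in STR/ort. Fast muscle sums averaged 54964 and 72888, 43292 and 58930.1, and 21051 and 37146 CPM in the same order. All 7 fast muscle genes were called lower in injured STR/ort joints at 1W (median −0.86), 1 of 7 in C57BL/6 and none in MRL/MpJ by edgeR.

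At 1W the called genes were Col14a1, Col12a1, Col16a1 and Col8a1 in all 3 strains, and Col8a2 in C57BL/6 and STR/ort. That made 4 of 7 higher in MRL/MpJ (background 3.13% of all genes), 5 in C57BL/6 (5.82%) and 5 in STR/ort (9.21%), with none lower. The median log2 fold change of the 7 genes was 0.79, 1.30 and 1.34, beside −0.01, −0.01 and −0.03 over all genes.

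At 2W, Col14a1 was still higher in injured joints of each strain. In MRL/MpJ it read 37.7, 90.5, 104, 115 and 126 CPM in injured and 22.1, 23.5, 23.5, 23.9 and 25.5 in contralateral joints. In C57BL/6 it read 76.5, 93.5, 99.0, 103 and 106 in injured and 27.6, 30.9, 34.9, 35.8 and 35.9 in contralateral joints. In STR/ort it read 140.3, 175, 202, 226 and 245 in injured and 42.8, 43.0, 68.9, 69.7 and 70.0 in contralateral joints. The groups did not overlap, although MRL/MpJ injured replicate 3, at 37.7, was well below the other 4, and its fibroblast (1197 against 1596 to 1934 CPM) and tendon sums (173 against 254 to 384) were the lowest of the group too.

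The log2 fold changes of Col14a1 at 2W were 1.99 ± 0.21 (SE) in MRL/MpJ (adjusted p = 1.4e-06, edgeR, and 2.19 without replicate 3), 1.54 ± 0.21 in C57BL/6 (adjusted p = 5.1e-06, edgeR) and 1.75 ± 0.20 in STR/ort (adjusted p = 8.7e-08, edgeR). Col16a1 was called higher in all 3 strains at 2W. Altogether 2 of the 7 genes were called higher in MRL/MpJ (background 1.16%), 4 in C57BL/6 (2.95%) and 5 in STR/ort (4.66%). Fast muscle sums averaged 70424 to 86545 CPM over the 6 groups of 2W, and no muscle gene was called for injury by edgeR in any strain. MRL/MpJ injured replicate 4 stood apart with 124633 against 57937 to 69268 CPM in the other 4, and it also had the highest Col7a1 (46.0, nearest 28.3). Fibroblast sums were higher in injured joints of each strain with no overlap, 1197 to 1934 against 1024 to 1070.5 CPM in MRL/MpJ, 1702 to 2329 against 1038 to 1142 in C57BL/6, and 2408 to 3219.9 against 1426 to 1999.6 in STR/ort, and 3 of 6 fibroblast markers were called higher in each. Tendon sums averaged 269.9 against 159, 407 against 185 and 625 against 312 CPM, and synovial lining sums 1315 against 737, 1270.0 against 635 and 2582 against 1641, in MRL/MpJ, C57BL/6 and STR/ort.

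**Figure D3:**
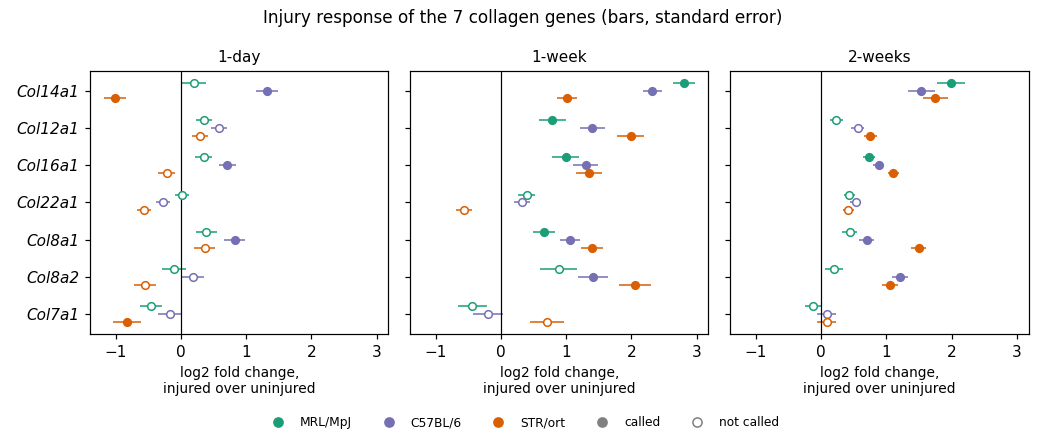
The log2 fold change of injured over contralateral joints (x axis, error bars are SE) is plotted for each of the 7 genes (y axis) at 1D, 1W and 2W in each strain, with filled points for genes called by edgeR. Col14a1 goes from 1.31 in C57BL/6 and −1.02 in STR/ort at 1D to 2.81, 2.32 and 1.01 in MRL/MpJ, C57BL/6 and STR/ort at 1W, and Col22a1 and Col7a1 stay below 1 in size throughout.

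The injury responses of Col14a1 differed between strains at 1D and 1W in tests of the difference itself. At 1D its response was 2.33 lower on the log2 scale in STR/ort than in C57BL/6 (−2.33 ± 0.24 SE, adjusted p = 2.5e-07, edgeR). The differences from MRL/MpJ at 1D, −1.22 for STR/ort (adjusted p = 0.030, edgeR) and 1.11 for C57BL/6 (adjusted p = 0.036, edgeR), were near the threshold, and the first was lost on leaving out any of 14 libraries and the second on any of 11 or with housekeeping scaling. At 1W the response in STR/ort was smaller than in MRL/MpJ (a difference of −1.80 ± 0.21 SE, adjusted p = 1.3e-05, edgeR) and smaller than in C57BL/6 (−1.31 ± 0.20, adjusted p = 9.2e-04, edgeR). At 2W no difference in the Col14a1 response was called, with −0.24 ± 0.28 for STR/ort against MRL/MpJ and 0.22 ± 0.28 against C57BL/6.

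Of 63 such tests over the 7 genes 11 were called, 6 of them for other genes than Col14a1. The Col16a1 response at 1D was −0.93 in STR/ort relative to C57BL/6 (adjusted p = 0.0019, edgeR). At 1W the Col12a1 response was larger in STR/ort than in MRL/MpJ by 1.20 (adjusted p = 0.029, edgeR, lost on leaving out any of 9 libraries), opposite in sign to the Col14a1 difference. The Col22a1 response at 1W was lower in STR/ort than in MRL/MpJ (−0.96) and C57BL/6 (−0.89). At 2W the type VIII genes had larger responses in STR/ort than in MRL/MpJ, 1.06 for Col8a1 (adjusted p = 0.0027, edgeR) and 0.86 for Col8a2 (adjusted p = 0.020, edgeR). The Col8a2 call was lost without MRL/MpJ contralateral replicate 1 (0.76, adjusted p = 0.093, edgeR). The Col8a2 response in C57BL/6 differed from that in MRL/MpJ by 1.02 ± 0.18 (SE), a larger value that was not called by edgeR (adjusted p = 0.073) but was called by DESeq2 (0.99) and by edgeR on leaving out any of 4 libraries (0.999 to 1.13).

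The shares of all genes called in these tests of a difference were small. At 1D they were 0.162% (STR/ort against MRL/MpJ, with 1 of the 7 genes), 2.66% (STR/ort against C57BL/6, 2) and 0.318% (C57BL/6 against MRL/MpJ, 1). At 1W they were 0.884% (3 of the 7 genes), 0.491% (2) and 0% (0) in the same order, and at 2W 0.451% (2), 0.0462% (0) and 0% (0). For the 0 at 1W between C57BL/6 and MRL/MpJ, edgeR gave 2 of the 7 genes an unadjusted p below 0.05 and DESeq2 called 0. For the 0 at 2W, edgeR gave 1 gene (STR/ort against C57BL/6) and 2 genes (C57BL/6 against MRL/MpJ) an unadjusted p below 0.05, and DESeq2 called 1 in each. Each pair of these tests shares a strain's libraries, so they are not independent of each other. The fits held no replicate block. With such a block, 5, 8 and 3 tests of a difference were called at 1D, 1W and 2W in place of 4, 5 and 2.

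Col12a1, the FACIT with the highest level, was called higher after injury in all 3 strains at 1W. In STR/ort it read 1056, 1057, 1097, 1370.3 and 1885 CPM in injured and 237, 272, 380.1 and 408 in contralateral joints, with no overlap. In C57BL/6 injured joints read 519.6, 561, 574, 624 and 973 against 221, 222, 237, 248 and 326, and in MRL/MpJ 233, 259, 267, 309 and 359.9 against 134, 146, 161 and 237, where the lowest injured joint lay below the highest contralateral joint. The log2 fold changes were 1.99 ± 0.21 (SE) in STR/ort, 1.40 ± 0.19 in C57BL/6 and 0.79 ± 0.20 in MRL/MpJ (adjusted p = 5.3e-08, 3.6e-06 and 0.018, edgeR), and the MRL/MpJ call was lost on leaving out any of 4 of its libraries. The response in STR/ort differed from that in C57BL/6 by 0.59 ± 0.27 (SE), which was not called (adjusted p = 0.41, edgeR), and from that in MRL/MpJ by the called value given above, lost on leaving out any of 9 libraries. C57BL/6 injured replicate 5, at 973 CPM, had the lowest fast muscle sum of its group (27987 against 35809.8 to 55529 CPM), and without it the C57BL/6 value was 1.20. At 2W Col12a1 was called in STR/ort alone (0.75), while in C57BL/6 the fold stayed under 1.5 (0.56, adjusted p = 2.2e-04, edgeR) and in MRL/MpJ the groups overlapped (0.23). At 1D it was called in no strain with all libraries, with log2 fold changes of 0.35, 0.58 and 0.29 in MRL/MpJ, C57BL/6 and STR/ort. The C57BL/6 value missed the fold threshold alone (adjusted p = 0.0010, edgeR) and was called on leaving out any of 9 libraries (0.59 to 0.68, the highest without C57BL/6 injured replicate 3), and that of 2W was called on leaving out any of 3 (0.60 to 0.63).

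Col16a1 was called higher in injured joints of all 3 strains at both 1W and 2W. At 1W it read 82.8, 88.9, 90.3, 95.02 and 96.6 CPM in injured and 38.1, 40.9, 41.1 and 66.4 in contralateral MRL/MpJ joints. It read 133, 145, 149.8, 169 and 227 against 41.5, 61.7, 68.9, 75.7 and 92.6 in C57BL/6, and 204, 206, 294, 349 and 425 against 94.2, 118, 124 and 127 in STR/ort, with no overlap in any strain. The log2 fold changes were 0.99 ± 0.21, 1.30 ± 0.19 and 1.34 ± 0.20 (SE), and at 2W 0.73 ± 0.09, 0.88 ± 0.08 and 1.11 ± 0.08, in MRL/MpJ, C57BL/6 and STR/ort. Differences between strains in these responses at 1W were 0.36 ± 0.28 (STR/ort against MRL/MpJ) and 0.05 ± 0.27 (STR/ort against C57BL/6), neither called.

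Col22a1 was called for injury at no time and in no strain by edgeR or DESeq2 with all libraries, although 5 of its 9 tests had an adjusted p below 0.05 (edgeR) with a fold under 1.5. At 2W its injured joints were above the contralateral joints in each strain, with 111 to 161 against 90.4 to 103 CPM in MRL/MpJ, 156 to 184 against 105 to 127 in C57BL/6 and 183 to 218 against 134 to 179.8 in STR/ort. These differences of 0.43, 0.53 and 0.42 on the log2 scale had adjusted p of 0.0031, 5.7e-05 and 5.4e-04 (edgeR) and a fold under 1.5. In STR/ort at 1W the sign was opposite, 113, 143, 143, 149.6 and 157 in injured and 146, 182, 224 and 283 in contralateral joints, an overlap with a log2 fold change of −0.57 ± 0.12. Its value in STR/ort at 1D was −0.57, and the STR/ort values passed the fold threshold at 1D with housekeeping scaling and at 1W with RUVg. They were also called at 1D without injured replicate 5 or contralateral replicate 4 or 5 (−0.60 to −0.59), and at 1W without injured replicate 2 or 5 or contralateral replicate 3 or 4 (−0.70 to −0.59).

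Col8a1, of type VIII collagen, was highest in STR/ort in all comparisons of injured joints. At 1W it read 347, 369, 387, 471 and 516 CPM in injured and 100.04, 162, 186 and 187 in contralateral STR/ort joints. In C57BL/6 it read 93.9, 95.7, 97.4, 105 and 154 against 38.8, 54.8, 55.3, 55.7 and 62.9, and in MRL/MpJ 75.8, 79.0, 84.1, 89.2 and 95.7 against 40.3, 57.2, 60.7 and 61.9, so that no group overlapped its contralateral group. The log2 fold changes of 1.39 ± 0.17, 1.05 ± 0.16 and 0.66 ± 0.17 (SE) were all called, the last lost without MRL/MpJ contralateral replicate 1 (0.53). At 2W it was called in STR/ort (1.495) and C57BL/6 (0.70) and missed the threshold in MRL/MpJ (0.44, adjusted p = 0.052, edgeR). With the animals of 2W as a replicate block, the larger response in STR/ort than in C57BL/6 was also called (0.82, adjusted p = 0.024, edgeR), as against 0.80 (adjusted p = 0.053, edgeR) without it.

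Col8a2, the partner chain, had lower levels and at 1W was also highest in STR/ort. At 1D it did not move with Col8a1, with log2 fold changes of −0.55 in STR/ort and 0.18 in C57BL/6 beside 0.36 and 0.82 for Col8a1. The Col8a2 value in STR/ort at 1D had a fold under 1.5 (adjusted p = 0.034, edgeR) and was called on leaving out any of 4 libraries (−0.62 to −0.59). Without STR/ort injured replicate 1, which read 5.64 CPM, it was −0.38 (adjusted p = 0.12, edgeR). At 1W it read 37.0, 40.5, 55.2, 77.6 and 103 CPM in injured and 12.6, 13.2, 14.6 and 19.4 in contralateral STR/ort joints. In C57BL/6 it read 22.3, 23.1, 25.5, 28.9 and 49.6 against 9.32, 10.2, 11.002, 12.4 and 13.9, and in MRL/MpJ 10.1, 11.5, 12.0, 12.5 and 15.2 against 5.36, 6.85, 6.90 and 8.15. The injured joints lay above the contralateral joints in each strain, and replicates 1 and 2 of STR/ort (103 and 77.6) and replicate 5 of C57BL/6 (49.6) stood above the others of their groups. The same STR/ort replicates had the highest smooth muscle and pericyte sums of their group (891 and 693 against 431 to 495 CPM), and replicate 1 the highest endothelium sum (440.5). In STR/ort at 1W, 4 of 5 smooth muscle and pericyte markers and 1 of 5 endothelium markers were called higher after injury, with mean sums of 597 against 344 and 385 against 274 CPM, and their part in the result was not tested. Increases of 2.05 ± 0.25 (SE) in STR/ort and 1.41 ± 0.23 in C57BL/6 were called, the latter 1.14 without replicate 5, and 0.88 ± 0.28 in MRL/MpJ was not (adjusted p = 0.077, edgeR), though it was called on leaving out any of 3 libraries of the other strains (0.88 each). At 2W it rose by 1.21 in C57BL/6 and 1.05 in STR/ort, and in MRL/MpJ the groups overlapped (0.19).

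Col7a1 was the only gene of the 7 with its highest 0D level in MRL/MpJ and had the lowest mean per kb of the 7 in most groups. At 1D it read 2.12, 2.14, 3.42, 3.93 and 5.50 CPM in injured and 4.29, 4.67, 4.89, 7.85 and 8.31 in contralateral STR/ort joints, and it fell there (−0.83 ± 0.21 SE, adjusted p = 0.0098, edgeR), though the groups overlapped. At 1W the injured STR/ort joints were spread, 5.48, 7.13, 7.42, 12.8 and 19.6, against 4.52, 5.52, 6.17 and 8.95 in contralateral joints. Replicate 1 was the highest, and the log2 fold change of 0.71 ± 0.26 (adjusted p = 0.054, edgeR) dropped to 0.35 without it and was called with a replicate block (0.80, adjusted p = 0.0059, edgeR) or on leaving out any of 6 other libraries (0.71 to 0.90). No injury call was made for Col7a1 in MRL/MpJ or C57BL/6, with log2 fold changes from −0.46 to 0.08.

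**Figure D4:**
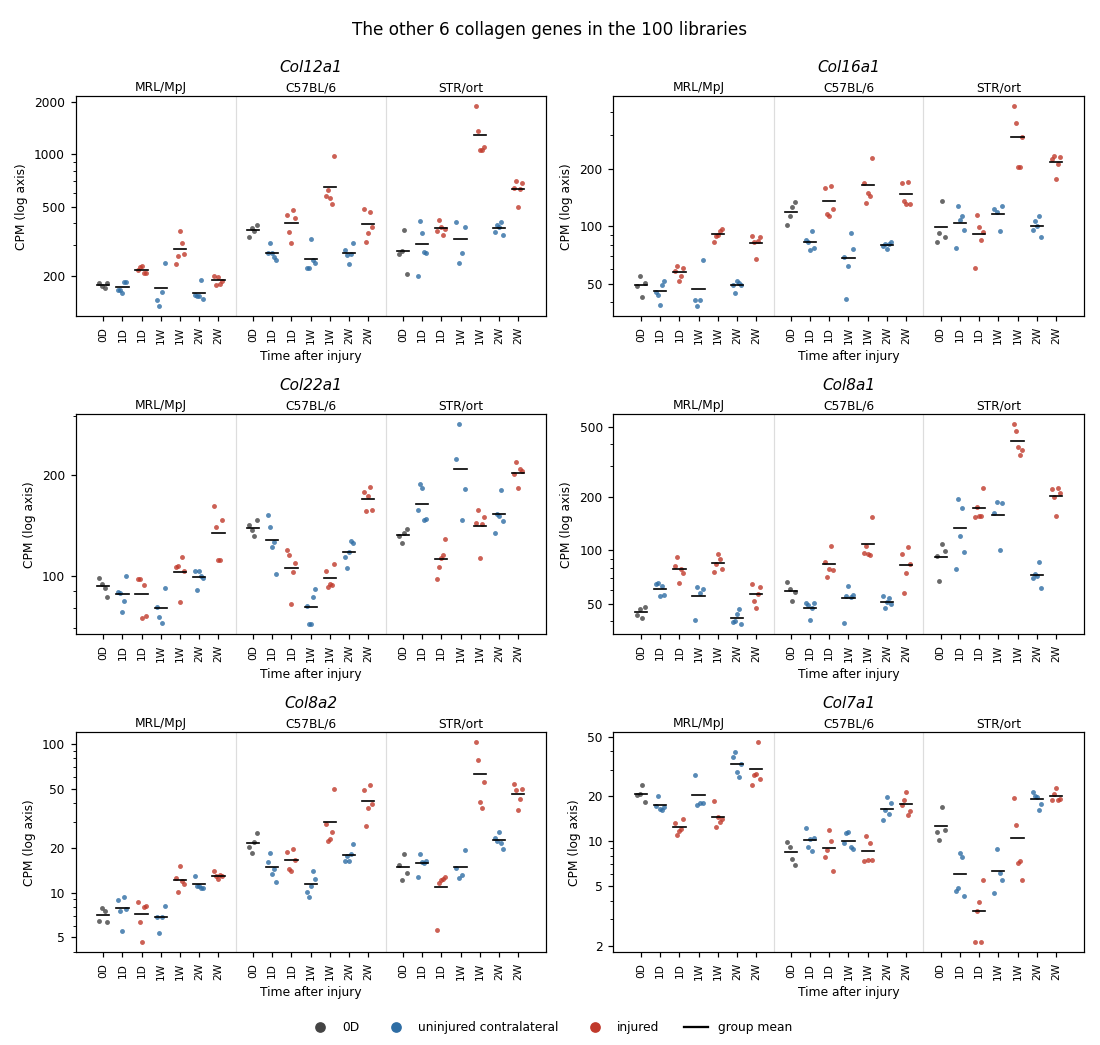
CPM (y axis, log scale) of Col12a1, Col16a1, Col22a1, Col8a1, Col8a2 and Col7a1 is plotted for each library by strain, time and joint, a point per library, with horizontal lines at group means. Group means of injured STR/ort joints at 1W are the highest for Col12a1 (1056 to 1885 in single libraries), Col16a1, Col8a1 and Col8a2. Single libraries of Col16a1 and Col8a2 overlap those of other injured groups. The group means of Col7a1 are highest in MRL/MpJ at each time.

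Contralateral joints did not keep their 0D levels in 2 of the strains, and the direction differed. In C57BL/6 at 1W, Col14a1 in contralateral joints (33.8 to 54.9 CPM) lay below its 0D range (67.4 to 106), a log2 fold change of −1.02 ± 0.13 (SE, adjusted p = 1.1e-05, edgeR). Col16a1 (−0.82), Col22a1 (−0.80) and Col8a2 (−0.91) also fell, 4 of 7 where 5.54% of all genes were called. In STR/ort, Col14a1 in contralateral joints (94.2 to 179 CPM at 1D and 99.0 to 217 at 1W) lay above its 0D range (52.7 to 85.0), by 0.77 ± 0.24 and 1.26 ± 0.25 on the log2 scale (adjusted p = 0.022 and 5.2e-04, edgeR). The 1D call was lost on leaving out any of 4 libraries.

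Col7a1 fell in STR/ort contralateral joints at both times (−1.10 and −1.03), calls that were lost without STR/ort 0D replicate 3 (−0.92 and −0.85), at 1W also without contralateral replicate 1 (−0.92) or 4 (−0.98), and were of the other sign with 1 RUVg factor. Col22a1 (0.64, lost without contralateral replicate 2 at 0.46) and Col8a1 (0.76) were called higher at 1W, and the Col8a1 call was lost without 0D replicate 2 (0.63) or contralateral replicate 2 or 4 (0.68 each). STR/ort thus had 1 gene higher and 1 lower at 1D (background 8.89%) and 3 higher and 1 lower at 1W (background 12.6%). All 7 fast muscle genes were called lower in these joints at both times (medians −1.11 and −1.20), and 4 of 6 fibroblast markers were called higher at 1W. In C57BL/6 at 1W 4 of 6 fibroblast markers were called lower. Synovial lining sums in STR/ort averaged 4584 CPM at 0D and 7960.1 and 10907 in contralateral joints at 1D and 1W, and tendon sums 649, 1060.2 and 1115. In C57BL/6 the 0D and 1W contralateral means were 2151 and 1208 for synovial lining and 883 and 419 for tendon, with 2 of 4 and 4 of 5 markers called lower.

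In MRL/MpJ contralateral joints edgeR called 0 of the 7 genes at 1D (3 at an unadjusted p below 0.05, 0 by DESeq2, background 0.156%) and 0 at 1W (2 at an unadjusted p below 0.05, 0 by DESeq2, background 0%). In C57BL/6 at 1D edgeR called 0 as well (4 at an unadjusted p below 0.05, 0 by DESeq2, background 0.0462%). Against 0D in place of the contralateral joint, mean Col14a1 in injured joints at 1W was 169 beside 21.9 CPM in MRL/MpJ, 204 beside 83.8 in C57BL/6, and 358 beside 72.9 in STR/ort, values that were not tested against each other.

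Injured joints of 1W were also compared with those of 1D, and the most genes were called in STR/ort. There 6 of the 7 genes rose (background 13.0%), by 2.51 for Col14a1, 1.79 for Col12a1, 1.71 for Col16a1, 1.27 for Col8a1, 2.52 for Col8a2 and 1.61 for Col7a1 on the log2 scale. In MRL/MpJ 3 rose (background 3.52%), Col14a1 by 2.47 ± 0.09 (SE), Col16a1 by 0.68 and Col8a2 by 0.80. In C57BL/6 Col12a1 (0.68) and Col8a2 (0.84) rose (background 4.35%), and both calls were lost without injured replicate 5 of 1W (0.49 and 0.57). Col14a1 in C57BL/6 had its increase by 1D, with 0.17 ± 0.12 from 1D to 1W (adjusted p = 0.37, edgeR). Mean fibroblast sums of injured joints at 1D and 1W, given above, went from 3040.3 to 5987 CPM in STR/ort, 1567 to 2521 in MRL/MpJ and 2995 to 2698 in C57BL/6.

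The strains differed in injured joints at each time. At 1D, STR/ort exceeded MRL/MpJ in 5 of the 7 genes and was lower in Col7a1 (background 20.3%, with the Col16a1 and Col8a2 calls lost under housekeeping scaling, the first also without STR/ort injured replicate 2 at 0.56 and the second without any of 6 libraries at 0.49 to 0.58), and C57BL/6 exceeded MRL/MpJ in 4 (16.3%), Col14a1 by 2.57. STR/ort was above C57BL/6 in Col8a1 (1.04) and below it in 4 genes, Col14a1 (−1.53), Col16a1 (−0.59, near the fold threshold), Col8a2 (−0.63) and Col7a1 (−1.40), where 12.4% of all genes were called. The Col16a1 call was lost with RLE size factors, with DESeq2 (−0.58), with RUVg (−0.47) and on leaving out any of 9 libraries (−0.57 to −0.47), and the Col8a2 call without C57BL/6 injured replicate 4 (−0.55) or STR/ort injured replicate 1 (−0.46). At 1W STR/ort was above both other strains in Col14a1, Col12a1, Col16a1, Col8a1 and Col8a2 (backgrounds 29.5% against MRL/MpJ and 25.1% against C57BL/6). The largest of these was Col8a2 against MRL/MpJ (2.32 ± 0.23 SE), followed by Col8a1 (2.28 ± 0.16). C57BL/6 exceeded MRL/MpJ at 1W in Col12a1, Col16a1 and Col8a2 and was lower in Col7a1 (background 9.47%, the Col7a1 call lost without MRL/MpJ injured replicate 1 at −0.67), with Col14a1 not called (0.27). At 2W STR/ort was above MRL/MpJ in 6 genes and below in Col7a1 (background 18.9%, with Col22a1 at 0.61 and Col7a1 at −0.60 near the fold threshold and each lost on leaving out any of 4 libraries, at 0.52 to 0.58 and −0.58 to −0.42, the last without MRL/MpJ injured replicate 4), above C57BL/6 in Col14a1, Col12a1 and Col8a1 (10.4%), and C57BL/6 was above MRL/MpJ in Col12a1, Col16a1 and Col8a2 and below in Col7a1 (11.5%).

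Marker sums of the injured joints differed between strains as well. STR/ort was below MRL/MpJ in all 7 fast muscle genes at 1D and 1W, and below C57BL/6 in 5 and 7 of them. It was above MRL/MpJ in 3, 5 and 3 of the 6 fibroblast markers at 1D, 1W and 2W. Against C57BL/6, STR/ort had 1 lower at 1D, 5 higher at 1W and 2 higher at 2W.

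Contralateral joints differed between strains too. STR/ort was above MRL/MpJ in 6 genes and below in Col7a1 at 1D, 1W and 2W alike (backgrounds 22.6%, 24.4% and 13.8%), with Col14a1 2.27, 2.87 and 1.31 higher and the Col22a1 call at 2W lost without STR/ort replicate 4 (0.55). Against C57BL/6, STR/ort was higher in 2 genes and lower in 1 at 1D (10.5%), higher in 4 and lower in Col7a1 at 1W (22.2%, the Col7a1 call of −0.67 lost on leaving out any of 6 libraries, at −0.68 to −0.55) and higher in Col14a1 alone at 2W (0.83, background 9.78%). C57BL/6 exceeded MRL/MpJ in 4, 1 and 3 genes at 1D, 1W and 2W and was lower in Col7a1 each time (backgrounds 14.8%, 8.53% and 9.83%). The 1W count depended on single libraries. Col12a1 (0.57) and Col16a1 (0.55) were called without MRL/MpJ contralateral replicate 4 (0.78 and 0.77). Col16a1 was also called without C57BL/6 contralateral replicate 2 (0.68). Col8a2 (0.75) was called without C57BL/6 injured replicate 5 or STR/ort injured replicate 1 (0.75 each). DESeq2 called 3 genes there in place of 2. With RUVg the STR/ort differences of Col16a1, Col8a2 and Col7a1 in contralateral joints at 1W were lost. In these joints STR/ort was above MRL/MpJ in 5, 5 and 3 of the 6 fibroblast markers at 1D, 1W and 2W, and above C57BL/6 in 3, 5 and 3.

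The balance between the FACITs of dense connective tissue, Col14a1 over Col12a1 in CPM per kb, differed between joints, times and strains, and is given as a description with no test. In MRL/MpJ it was 0.221 ± 0.0413 (SD, n = 4) at 0D and 0.254 ± 0.0424 (n = 5) in injured joints at 1D, and reached 1.08 ± 0.229 at 1W and 0.909 ± 0.359 at 2W, with contralateral means of 0.267 at both later times. In C57BL/6 it was 0.410 ± 0.0803 at 0D, 0.806 ± 0.0912 in injured joints at 1D, 0.580 ± 0.111 at 1W and 0.434 ± 0.0628 at 2W. The contralateral C57BL/6 joints read 0.479 ± 0.0349, 0.293 ± 0.0158 and 0.220 ± 0.0381 at these times. In STR/ort the contralateral joints were higher than the injured ones at 1D (0.764 ± 0.220 against 0.302 ± 0.112) and 1W (1.02 ± 0.430 against 0.517 ± 0.106), and lower at 2W (0.278 ± 0.0617 against 0.554 ± 0.0546). Col14a1 exceeded Col12a1 per kb in 7 of 100 libraries, or 14 with exon-union lengths.

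**Figure D5:**
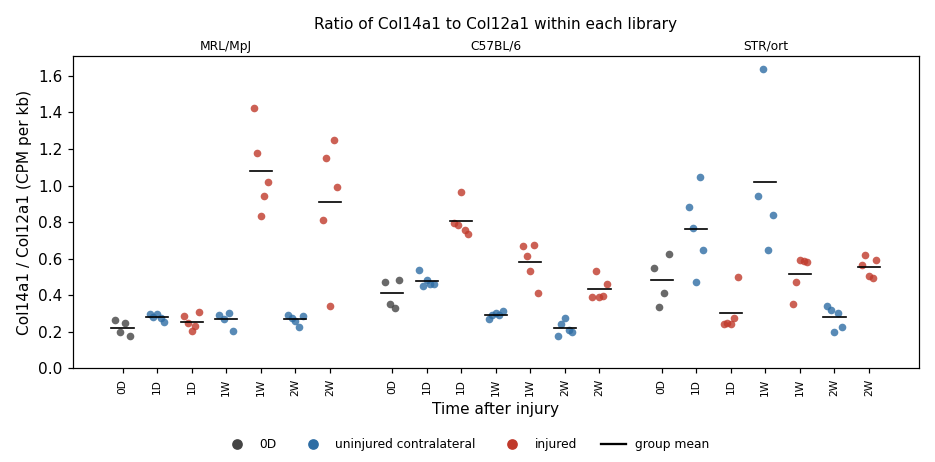
The ratio of Col14a1 to Col12a1, both in CPM per kb of transcript (y axis), is plotted for each library by strain, time and joint, a point per library, with horizontal lines at group means. MRL/MpJ injured joints average 1.08 at 1W and 0.909 at 2W beside 0.267 in their contralateral joints, and STR/ort contralateral joints average 1.02 at 1W.

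The fibrils these collagens attach to, and other proteins on fibril surfaces, were followed by lists fixed with earlier results known. Of 8 fibrillar collagen genes, 3, 4 and 5 were called higher after injury at 1W in MRL/MpJ, C57BL/6 and STR/ort, and 2, 3 and 5 at 2W, none lower by edgeR. Col3a1, the chain of type III collagen, rose by 2.61, 2.43 and 1.77 at 1W, and Col5a1, a chain of type V collagen, by 1.39, 1.87 and 1.74. Of 7 fibril surface partners (proteoglycans, Comp and the tenascins), 6 rose at 1W in MRL/MpJ, 6 in C57BL/6 and 4 in STR/ort, where 1 fell. Comp, a pentameric protein that binds fibrillar and FACIT collagens, rose by 1.01 in MRL/MpJ and 0.98 in C57BL/6 and had a value of −0.07 in STR/ort. In C57BL/6 contralateral joints at 1W all 8 fibrillar collagens and all 7 surface partners were called lower than at 0D.

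The FACIT genes of cartilage and related collagens outside the list (6 of 7 measured) had no call for injury in MRL/MpJ or C57BL/6 at 1W and 1 lower in STR/ort. The anchoring partners of type VII collagen (6 laminin-332, integrin and Col17a1 genes) had 1 called higher in STR/ort at 1W and none in the other strains. Tendon markers were called higher at 1W in 4 of 5 in MRL/MpJ, 4 in C57BL/6 and 5 in STR/ort, with mean sums of 2783 against 1115 CPM in STR/ort. These lists moved in the same joints as the collagens, and their part in the results was not tested.

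Across the 100 libraries, with each batch's mean removed from log2 CPM, Col16a1 and Col8a2 had a Pearson correlation of 0.94, Col12a1 and Col16a1 0.93, and Col12a1 and Col8a2 0.92. Col14a1 followed Col16a1 (0.89) more closely than Col8a2 (0.80), Col12a1 (0.79), Col8a1 (0.73) or Col22a1 (0.64). Col7a1 ran the other way, with correlations of −0.32 to −0.45 with the others, 0.68 with the fast muscle list and −0.68 with the bone list. Col14a1 had 0.90 with the fibroblast list, which includes Dpt, 0.85 with tendon and 0.67 with synovial lining. It had −0.62 with the erythroid list and −0.43 with fast muscle. The libraries share strains, times and animals, so these values are descriptions with no p.

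The genes with a course most like that of Col14a1, by the same measure over 100 libraries, were Fndc1 (0.973), Dpt (0.960), Col3a1 (0.959), Cd248 (0.955), Thbs3 (0.953), Ssc5d (0.951), Igsf10 (0.944), Col6a2 (0.943), Col6a1 (0.942) and Angptl1 (0.940). Of these 10, 8 were also in the top 10 by Spearman's rho. For Col12a1 they were Tnn (0.961), Postn (0.960) and Thbs2 (0.948), and for Col16a1 Mmp2 (0.955), Col5a1 (0.954) and Bgn (0.953). Col22a1 was followed by Scara3 (0.896), Ntn1 (0.887) and Fap (0.881), and Col8a1 by Pmepa1 (0.938), Col18a1 (0.929) and Ikbip (0.929). Col8a2 had Itga11 (0.941), its fellow list gene Col16a1 (0.939) and Capn6 (0.924), and Col7a1 had Kif3c (0.882), Acsl6 (0.854) and Spg7 (0.854).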

How the data were processed

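Poly(A)-selected RNA of mouse knee joints was sequenced, and the deposited table holds raw counts per gene for 100 libraries. The authors aligned reads to mm10 with TopHat 2.0.11 and counted them on RefSeq genes with featureCounts. The strandedness of the counting was not given in the sources used here, so antisense overlaps cannot be told apart. Of 17313 rows, 3 that repeated another row in gene name and all counts were dropped. The filter in the study's methods, 2 or more counts in 5 or more libraries, took out none of the other 17310. Libraries were grouped by their titles, 190 within-group pairs held 0 identical libraries, and library totals set the precision, with the lowest counts in Col7a1.

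CPM use TMM-scaled library sizes. edgeR 4.0.16 (R 4.3.3) fitted a quasi-likelihood model to all genes of 0D, of 1D, of 1W, of 2W and, for time, of each strain in batch 1, giving 48 comparisons and 336 values for the 7 genes. Calls needed a Benjamini-Hochberg adjusted p below 0.05 and a fold above 1.5, as in the study. The normalisation was not that of the study, which used RUVseq with 25 housekeeping genes, whereas the main fits here used TMM factors. RUVg was run only as an alternative with 1 factor, in which 139 of 159 calls were kept. Nothing in the labels except animal numbers at 2W says whether libraries of a group came from separate animals, so p-values measure the spread between these libraries. The 7 genes and all lists were chosen with earlier results of these data known. The genes named beside them were the 10 most correlated with Col14a1 and the 3 most correlated with each other collagen, and examples of the fixed lists. The scripts were tested on simulated data.

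Same-numbered joints of 2W came from the same animal in 15 pairs by the labels. At 1W in STR/ort each pair deviated together (lowest correlation 0.157), so these joints were also regarded as pairs. The main fits held no replicate block, so their p-values and SE, those of 2W included, do not use the pairing. In MRL/MpJ at 2W the joints of an animal did not deviate together (correlations −0.31 to 0.081). Alternatives were RLE factors, scaling on 25 housekeeping genes, 1 RUVg factor, filterByExpr, DESeq2 1.42.0, a replicate block and leaving out each library in turn. Sequences came from GENCODE M21 transcripts and RefSeq upstream tables of the reference strain. Upstream sequence was not used here for Col14a1, Col12a1 and Col22a1.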

Additional observations from a re-analysis of the deposited data

Results flagged for a closer look

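In 12 of the 147 combinations of a gene and a group, the highest or lowest library stood apart from the others by Dixon's criterion at 95%, where chance gives about 1 in 20. For Col14a1 this was STR/ort injured replicate 5 at 1D (104 CPM, nearest 58.0). For Col12a1 these were C57BL/6 injured replicate 5 at 1W (973, nearest 624), C57BL/6 contralateral replicate 3 at 1W (326, nearest 248) and MRL/MpJ contralateral replicate 4 at 2W (189.8, nearest 155). Col16a1 had MRL/MpJ contralateral replicate 4 at 1W (66.4, nearest 41.1), and Col8a1 C57BL/6 injured replicate 5 at 1W (154, nearest 105). Col8a2 had STR/ort injured replicate 1 at 1D on the low side (5.64, nearest 11.7), C57BL/6 injured replicate 5 at 1W (49.6, nearest 28.9) and MRL/MpJ contralateral replicate 1 at 2W (13.0, nearest 11.1). Col7a1 had MRL/MpJ contralateral replicate 2 at 1D (20.1, nearest 17.3), contralateral replicate 1 at 1W (27.7, nearest 18.1) and injured replicate 4 at 2W (46.0, nearest 28.3). C57BL/6 injured replicate 5 at 1W stood apart for 3 of the 7 genes, and its fast muscle sum was the lowest of its group.

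In 11 tests the injury response differed between strains (edgeR interaction terms, log2 scale). At 1D the STR/ort response of Col14a1 was −1.22 against MRL/MpJ and −2.33 against C57BL/6, the C57BL/6 response was 1.11 against MRL/MpJ, and the STR/ort response of Col16a1 was −0.93 against C57BL/6. At 1W the STR/ort response of Col14a1 was −1.80 against MRL/MpJ and −1.31 against C57BL/6, that of Col12a1 1.20 against MRL/MpJ, and that of Col22a1 −0.96 against MRL/MpJ and −0.89 against C57BL/6. At 2W the STR/ort response against MRL/MpJ was 1.06 for Col8a1 and 0.86 for Col8a2.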

How the results depend on the processing

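Of 159 called values among 336, 158 stayed called in the same direction with RLE size factors, filterByExpr and DESeq2 each, 154 with housekeeping scaling and 139 with 1 RUVg factor. Calls gained were 0, 0, 8, 8 and 7 in that order. With RUVg, the Col7a1 values of STR/ort contralateral joints against 0D took the other sign, 0.16 at 1D and 0.067 at 1W, and the calls between strains in contralateral joints at 1W, over the 7 genes and 3 pairs of strains, numbered 8 in place of 14. The interaction calls at 2W were 4 with DESeq2 in place of 2. The cause was not tested. In 9114 values with 1 library left out, 92 calls were lost, 76 gained and 0 reversed.

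Leaving out 1 library at a time, the number of calls over the 3 strains ranged as follows. For injury it was 5 to 8 at 1D, 13 to 16 at 1W and 11 to 12 at 2W, and 8 without STR/ort injured replicate 5 at 1D. For the difference of responses it was 2 to 6 at 1D, 4 to 6 at 1W and 1 to 5 at 2W. The 2 came without MRL/MpJ contralateral replicates 1 to 4 at 1D, the 1 without MRL/MpJ contralateral replicate 1 at 2W and the 5 without STR/ort injured replicate 3. For strains it was 12 to 15 at 0D, 13 to 15 in injured joints at 1D and 1W and 12 to 15 at 2W, and 15 to 16, 13 to 16 and 11 to 12 in contralateral joints at 1D, 1W and 2W. For time it was 1 to 3 and 6 to 9 in contralateral joints at 1D and 1W against 0D, and 9 to 11 in injured joints.

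With a replicate block, all 41 calls among the 126 values it applies to were kept and 7 were gained, so that 8 responses differed between strains at 1W in place of 5. Besides the values given with Col8a1 and Col7a1, the gains were Col8a2 injury in MRL/MpJ at 1W (0.90), the STR/ort response of Col8a2 against C57BL/6 at 1D (−0.76), and at 1W the STR/ort response of Col8a1 (0.76) and Col7a1 (1.23) against MRL/MpJ and of Col7a1 (1.02) against C57BL/6. Outside 2W and STR/ort at 1W, same-numbered libraries share only a number. Depth limited Col7a1 most, at 25 counts in its lowest library.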
